A study of Mus musculus with 143 samples.

Results

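Opposite-strand genes are genes named after a neighbour that lies on the other DNA strand, with os, os2 or os3 added to the neighbour's symbol. Members were all genes with such a symbol whose symbol without the ending is itself a gene in the count files, and which had 10 or more counts in total over an assay. Of 251 such genes in the poly(A) files 175 met the count minimum, and of 248 in the RiboMinus files 160 did. Either assay held 181 and both held 154, out of 55573 and 55487 gene identifiers in the poly(A) and RiboMinus files. The 175 poly(A) members had 172 partner genes, since some partners have more than 1 opposite-strand gene and Tmem147os is counted under a pair of identifiers. In the poly(A) files 5 members had 10 to 12 counts in total, 4 genes left out had 7 to 9, and 33 left out had 0.

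The study sequenced single mouse oocytes with and without Dis3 and Exosc10, by 2 methods. Poly(A) libraries came from fully grown oocytes at the germinal vesicle stage (GV), after 3 h of culture (GV3h) and from ovulated eggs at metaphase II (MII), each from control (8, 8 and 8 libraries) and Dis3 cKO females (15, 16 and 16 libraries), where cKO stands for conditional knockout. RiboMinus libraries, made from total RNA with random primers, came from adult GV oocytes of control and Dis3 cKO females and from oocytes at postnatal day 20 (p20) of control, Dis3 cKO, Exosc10 cKO and double knockout (dcKO, both genes) females, with 8 libraries a group. CUT&Tag peak lists came with 3 libraries a group. Those for RNA polymerase II (Pol II, pols2s5 in the sample titles) were from adult GV control, adult GV Dis3 cKO and p20 control oocytes. Those for histone H3 trimethylated on lysine 27 (H3K27me3) were from the same groups and from p20 dcKO oocytes. The labels call the reference animals control and name no Cre driver, and they say that the mutant mice were built by CRISPR/Cas9. They do not say which oocytes came from the same female. Every p-value below from single-oocyte libraries thus measures the spread between oocytes, which may be smaller than that between animals. Those from peak lists or summed counts measure the spread between lists or sums.

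The nuclear RNA exosome is a complex that trims and destroys RNA from its free end. DIS3 and EXOSC10 are its catalytic RNases, the former acting mostly in the nucleoplasm and the latter mostly in the nucleolus. Many mammalian promoters fire in both directions, and the RNA that runs upstream, away from the gene, is usually short lived and is a known substrate of the exosome. Opposite-strand genes include such divergent transcripts, antisense transcripts that run through the partner's body, and a few protein-coding genes. Some of the latter, such as Cebpzos and Myocos, overlap the partner.

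The label lncRNA held for most of the members only. Of the 175 poly(A) members 121 (69.1%) are typed as lncRNA or antisense RNA in the RefSeq gene table of GRCm38.p6, 12 (6.86%) as protein coding, 2 as pseudogenes, and 40 (22.9%) have no type there. Slc7a6os, Myocos, Cebpzos and Brd3os are among the protein-coding members. By position, 31 members stand head to head with the partner, with starts 11 to 825 bases apart (median 137) on opposite strands. Another 56 overlap the partner's body in another way, 8 lie apart, and 80 could not be placed, since the tables give no strand or position for 1 of the 2 genes. How the authors' counting used strand is not given in the sources used here, so where exons of a member and its partner overlap, their reads cannot be told apart. The same limit holds where a member overlaps another gene. By gene body, for example, Brip1os lies over Ints2 and Med13, Ino80dos over Ndufs1, Uckl1os over Zfp512b, Dhrs13os over Phf12 and Phtf1os over Rsbn1.

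The start regions of 6 head-to-head members are printed because the results below turn on these pairs. Each is the RefSeq promoter window of GRCm38.p6, from 250 bases before to 50 bases after the member's start, read 5′ to 3′ on the member's strand, with GC boxes (GGGCGG on either strand, neighbouring matches may overlap) in capitals. The windows come, in order, from chr11:61505037-61505336 (minus strand, starts 58 bases apart), chr13:48967862-48968161 (plus, 52), chr16:24393606-24393905 (minus, 305), chr10:94688564-94688863 (minus, 11), chr6:31398724-31399023 (minus, 55) and chr9:57131241-57131540 (minus, 615).
B9d1os: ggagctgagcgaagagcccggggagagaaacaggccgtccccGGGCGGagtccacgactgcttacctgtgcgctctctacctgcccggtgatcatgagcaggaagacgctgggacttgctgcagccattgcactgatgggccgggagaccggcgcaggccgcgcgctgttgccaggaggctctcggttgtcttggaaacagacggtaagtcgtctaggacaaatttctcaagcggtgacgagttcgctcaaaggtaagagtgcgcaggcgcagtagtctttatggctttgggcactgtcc
Fam120aos: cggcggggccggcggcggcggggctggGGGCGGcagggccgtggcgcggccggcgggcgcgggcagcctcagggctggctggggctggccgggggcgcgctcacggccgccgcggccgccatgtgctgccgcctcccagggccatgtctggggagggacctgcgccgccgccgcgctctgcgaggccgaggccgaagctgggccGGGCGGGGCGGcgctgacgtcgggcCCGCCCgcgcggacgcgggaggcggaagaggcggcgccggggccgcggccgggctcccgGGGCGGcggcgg
Lppos: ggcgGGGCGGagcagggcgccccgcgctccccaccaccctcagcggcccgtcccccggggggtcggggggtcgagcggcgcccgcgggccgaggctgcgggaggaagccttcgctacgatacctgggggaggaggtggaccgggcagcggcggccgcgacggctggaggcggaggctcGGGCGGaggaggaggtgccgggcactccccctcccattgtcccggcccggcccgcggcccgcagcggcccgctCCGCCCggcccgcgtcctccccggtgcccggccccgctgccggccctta
Cep83os: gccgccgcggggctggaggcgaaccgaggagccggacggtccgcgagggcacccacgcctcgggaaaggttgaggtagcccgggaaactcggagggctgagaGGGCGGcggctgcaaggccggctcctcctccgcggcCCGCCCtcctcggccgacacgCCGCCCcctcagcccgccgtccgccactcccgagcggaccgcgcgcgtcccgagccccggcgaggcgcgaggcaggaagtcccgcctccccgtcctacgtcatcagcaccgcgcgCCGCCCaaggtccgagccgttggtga
Mkln1os: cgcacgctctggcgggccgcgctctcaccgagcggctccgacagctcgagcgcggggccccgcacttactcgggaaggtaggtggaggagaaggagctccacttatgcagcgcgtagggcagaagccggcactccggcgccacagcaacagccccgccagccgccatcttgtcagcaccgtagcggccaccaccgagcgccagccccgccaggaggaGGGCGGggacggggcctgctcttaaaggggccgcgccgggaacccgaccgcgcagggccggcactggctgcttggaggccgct
Man2c1os: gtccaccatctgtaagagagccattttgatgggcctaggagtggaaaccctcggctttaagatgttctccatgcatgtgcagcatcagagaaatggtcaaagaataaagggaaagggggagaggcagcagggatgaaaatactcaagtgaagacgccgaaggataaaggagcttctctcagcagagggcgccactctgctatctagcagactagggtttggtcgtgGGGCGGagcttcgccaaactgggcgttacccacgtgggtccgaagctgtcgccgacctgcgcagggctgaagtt
In 4 of these 6, those of B9d1os, Fam120aos, Cep83os and Mkln1os, the start of the partner lies inside the window. The windows of Lppos and Man2c1os do not hold the partner's start but lie within the partner's body, and both members overlap their partner.

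Promoter windows were found for 119 of the 181 members and 147 of the 178 partners. The 31 head-to-head windows had a median GC content of 66.0% and 26.0 CpG, against 50.3% and 4 CpG in 59 windows of members that overlap their partner otherwise. Other lncRNA genes (9425 windows) stood at 48.3% and 4 CpG, and protein-coding genes (17492 windows) at 56.3% and 13 CpG. A GC box occurred in 61.3% of head-to-head windows, 8.47% of overlapping ones, 57.8% of partner windows and 35.9% of all 27025 windows. TATAAA occurred in 3.23% of head-to-head windows and 14.2% of all, and CCAAT in 19.4% and 38.0% (each searched on both strands). Head-to-head starts were thus the GC-rich ones, and those of overlapping members lay close in median composition to those of other lncRNA genes.

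Total counts ran from 4843964 to 15412200 in the 71 poly(A) libraries (median 9510351) and from 8492102 to 35429028 in the 48 RiboMinus libraries (median 18164035). Dis3 was lower in every group labelled Dis3 cKO or dcKO (log2 fold change -2.18 at GV, -2.57 at GV3h, -3.63 at MII, -3.13 in adult GV, -2.74 at p20 and -2.25 in dcKO), and Exosc10 in Exosc10 cKO (-5.22) and dcKO (-4.01). All 12 oocyte markers were present in every group, with sums of 7989 to 27163 CPM (counts scaled to a common library size) per library. Both ends came from MII Dis3 cKO, where library 15 stood at 7989 CPM and the others at 17726 to 27163 CPM (16841 to 20643 CPM in MII controls). The 12 markers of granulosa and cumulus cells, the somatic cells around the oocyte, summed to 50.1 to 206 CPM, with Ptx3 at 0 in every group but p20 Dis3 cKO. Their sum moved with genotype in poly(A) libraries: it was 104 to 193 CPM in MII controls and 64.2 to 103 CPM in MII Dis3 cKO, where Foxl2 and Inha were also at 0, and the medians were 123 and 91.6 CPM at GV and 87.2 and 72.5 CPM at GV3h. In adult GV the medians were 113 and 120 CPM, and at p20 142 CPM in controls, 177 CPM in Dis3 cKO, 157 CPM in Exosc10 cKO and 156 CPM in dcKO. Their part in the results below was not tested. MII Dis3 cKO library 15 was the highest of its group for Kif16bos and Arhgap20os, and counts were also made without it and without GV control library 1. With library sizes set by the ERCC spike-in RNA instead of by the bulk of genes (TMM), the median change of all genes moved from 0.04 to -0.23 (log2) in Dis3 cKO GV oocytes, from 0.16 to 0.52 at MII, from 0.03 to -0.52 in adult GV and from -0.27 to -2.12 for control MII against GV. Changes below are relative to the bulk of genes unless stated.

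In GV oocytes without Dis3, more opposite-strand genes were higher than lower. Of the 88 members that passed the filter on low counts, 21 were called higher and 6 lower (edgeR's quasi-likelihood test, Benjamini-Hochberg adjusted p under 0.05 over all genes), against 21.9% of all genes called (13.6% higher and 8.33% lower). With ERCC scaling the split was 11 higher and 6 lower. Of 138 tested partners 10 were higher and 12 lower, and 3 and 18 with ERCC scaling. The median log2 change was 0.31 for the members, -0.06 for the partners and 0.04 for all genes. The shares were near those of other lncRNA genes, of which 382 of 1332 tested were higher and 50 lower. Members without a call in a comparison did not pass the test or the filter, and the 88 that passed are, by construction, the better-counted of the 175. Of these 88, 27 (30.7%, against 16.7% of all tested genes) passed only with the Dis3 cKO libraries included. The filter favours such genes where they are high in the knockout, so the counts of members higher and the adjusted p of such genes are descriptions. At GV they were 10 of the 21 higher members, Kif16bos, B9d1os, Trp73os, Fam120aos and Atad3aos among them, and at GV3h 12 of 31 and at MII 13 of 31.

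**Figure D1:**
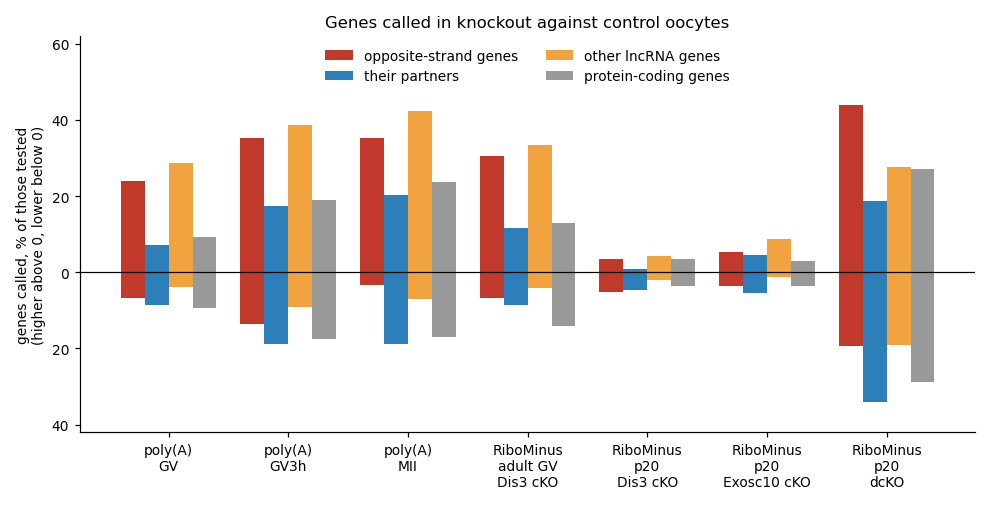
Share of tested genes called higher (above 0) or lower (below 0) in knockout against control oocytes, in percent, for opposite-strand genes, their partners, other lncRNA genes and protein-coding genes, by comparison. Opposite-strand genes and other lncRNA genes were called higher more often than lower in the 3 poly(A) comparisons and in adult GV oocytes (the members' adult split was 11 and 11 with ERCC scaling), and few genes of any kind were called in the single knockouts at p20.

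Kif16bos, a lncRNA whose start lies 1356 bases from that of Kif16b, the gene of an endosomal kinesin, was at 0 to 0.2 CPM in the 8 GV control libraries (median 0) and at 1.2 to 10.8 CPM in the 15 Dis3 cKO libraries (median 3.46). The groups did not overlap. It had 528 counts against 3, a 93.2-fold higher level per library size (95% counting interval 31.7 to 453). Such intervals cover counting error only, not the spread between oocytes, and amplified reads are not independent molecules. Kif16b itself was at 40.7 to 53.0 CPM in controls and 36.9 to 69.9 CPM in Dis3 cKO, with a log2 change of 0.25 ± 0.12 (SE, adjusted p = 0.128).

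B9d1os starts 58 bases from B9d1, which encodes a protein of the ciliary transition zone. It was at 0 to 0.757 CPM in GV controls (median 0.0551) and at 0.701 to 11.6 CPM in Dis3 cKO (median 2.99), and only the lowest knockout library reached into the control range. The log2 change was 4.37 ± 0.64 (adjusted p = 1.52e-07), while that of B9d1 was 0.03 ± 0.16 (adjusted p = 0.913).

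Trp73os, named after the p53 family member Trp73, was at 0.4 to 0.865 CPM in GV controls and 2.06 to 8.83 CPM in Dis3 cKO. The groups did not overlap, with a log2 change of 2.86 ± 0.48 (adjusted p = 2.8e-06), beside 0.17 ± 0.28 for Trp73 (adjusted p = 0.736). Fam120aos, head to head with the gene of an RNA-binding scaffold protein, went from 0.0983 to 0.772 CPM in controls to 0.986 to 4.58 CPM, again without overlap, a change of 2.42 ± 0.5 (adjusted p = 0.000108). Fam120a changed by 0.1 ± 0.2 (adjusted p = 0.785).

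Brd3os, a protein-coding member near Brd3, the gene of a reader of acetylated histones, was at 0 to 2.25 CPM in GV controls (median 0.56) and at 0.281 to 11.3 CPM in Dis3 cKO (median 4.04). The ranges overlapped, and the change was 2.3 ± 0.67 (adjusted p = 0.00751), beside 0.27 ± 0.15 for Brd3 (adjusted p = 0.182). Atad3aos rose by 1.81 ± 0.64 (adjusted p = 0.0302), a call that was lost with ERCC scaling (1.55). Of the 81 pairs with both genes tested, 18 had a call for the opposite-strand gene alone (14 higher and 4 lower), 7 for the partner alone, and 8 for both, 6 of them in the same direction.

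**Figure D2:**
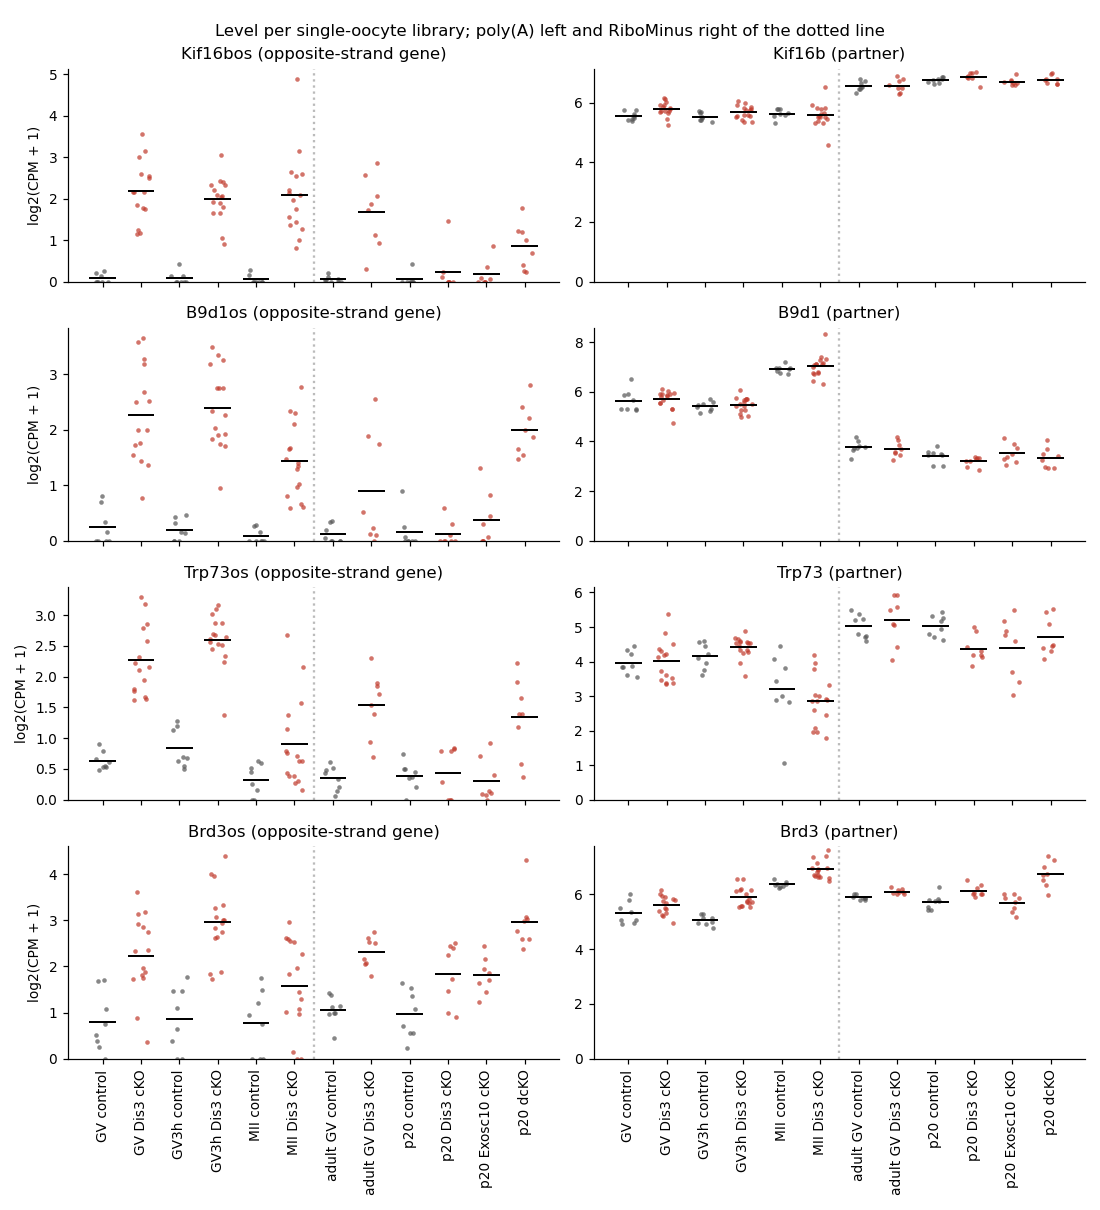
Level of 4 opposite-strand genes (left) and their partners (right) in each single-oocyte library, as log2(CPM + 1), for the 12 groups of libraries. Each point is 1 library, grey for control and red for knockout, black lines are group means, and the dotted line parts poly(A) from RiboMinus libraries. Kif16bos, B9d1os and Trp73os were higher in Dis3 cKO than in control oocytes at all 3 poly(A) stages, and their partners were not called in these comparisons.

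The 2 pairs called in opposite directions at GV were Lppos with Lpp and Grip1os3 with Grip1. Lppos, head to head with the gene of a focal adhesion protein, was at 1.72 to 3.64 CPM in controls and 2.22 to 16.8 CPM in Dis3 cKO (log2 change 1.51 ± 0.3, adjusted p = 5.16e-05), while Lpp fell by 0.49 on the log2 scale (adjusted p = 0.0169). Grip1os3 stood at 23 to 42.0 CPM in controls and 17.5 to 64.2 CPM in Dis3 cKO (0.51 ± 0.17, adjusted p = 0.0212, lost with ERCC scaling at 0.25). Grip1, the gene of a scaffold for glutamate receptors, was lower (-0.83 ± 0.17, adjusted p = 0.000116). The log2 ratio of Grip1os3 to Grip1 within a library, which no scaling touches, averaged 0.01 ± 0.43 (SD) in controls and 1.33 ± 0.6 in Dis3 cKO.

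The 6 members that fell at GV were Sp3os, Arhgap15os, Tbx3os2, Myocos, Kdm6bos and Slc7a6os. Sp3os, on a gene whose protein binds GC boxes, was at 3.96 to 8.8 CPM in controls and 0.887 to 5.03 CPM in Dis3 cKO, with overlapping ranges (-1.25 ± 0.27, adjusted p = 0.000276). Myocos, one of the members with the most reads, was at 348 to 509 CPM in controls and 171 to 401 CPM in Dis3 cKO (-0.58 ± 0.22, adjusted p = 0.0426). Its partner Myoc, which encodes an extracellular glycoprotein, was not called (-0.36 ± 0.18, adjusted p = 0.162). Kdm6bos fell together with Kdm6b, the gene of a demethylase of H3K27 (-0.45 ± 0.16 and -0.33 ± 0.13, adjusted p = 0.0284 and 0.0472).

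After 3 h of culture 31 of 88 members were higher and 12 lower in Dis3 cKO, against 38.6% of all genes called (22.9% higher and 15.7% lower). Partners were split 24 higher to 26 lower of 138. B9d1os (4.92 ± 0.66, adjusted p = 8.1e-09) and Kif16bos (5.32 ± 0.69, adjusted p = 3.41e-09) were again above control, with no overlap between the groups for either, and both passed the filter only with the knockout libraries. Brd3os rose by 2.97 ± 0.68 (adjusted p = 0.000297) and Fam120aos by 2.92 ± 0.52 (adjusted p = 4.88e-06), and at this stage their partners rose too, Brd3 by 0.9 ± 0.15 (adjusted p = 1.03e-06) and Fam120a by 0.88 ± 0.2 (adjusted p = 0.000314).

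Dio3os and Dio3, the gene of the deiodinase that inactivates thyroid hormone, rose as a pair at GV3h. Dio3os was at 0 to 0.435 CPM in controls and 0 to 3.33 CPM in Dis3 cKO (3.48 ± 0.94, adjusted p = 0.00222), and Dio3 at 0 to 1.22 CPM and 0.113 to 7.77 CPM (2.98 ± 0.88, adjusted p = 0.00504). Both ranges overlapped and both levels were low. Dio3os passed the filter on low counts only with the Dis3 cKO libraries, so its adjusted p is a description.

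The lower members at GV3h were led by Sp3os, which was at 2.46 to 7.04 CPM in controls and 0.639 to 2.03 CPM in Dis3 cKO. The groups did not overlap (-1.92 ± 0.27, adjusted p = 2.8e-08), and Sp3 was higher (0.75 ± 0.14, adjusted p = 1.11e-05). Usp46os2 fell with Usp46, the gene of a deubiquitinating enzyme: from 54.3 to 69.0 CPM in controls to 11.9 to 52.7 CPM for Usp46os2, and from 681 to 767 CPM to 173 to 661 CPM for Usp46, neither with overlap (-1.21 ± 0.2 and -1.01 ± 0.19, adjusted p = 1.63e-06 and 1.67e-05). Of 19 pairs with both genes called, 14 moved the same way and 5 oppositely. The latter were Sp3os, Slc7a6os, Cebpzos, Brip1os and Mkln1os with their partners.

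In MII eggs 31 of 88 members were higher and 3 lower, against 42.1% of all genes called (27.3% higher and 14.8% lower). A fit on the MII groups alone called 18 of 59 tested members, 30.5%, beside 30.6% of all genes in that fit. Kank4os, a lncRNA within Kank4, the gene of a cytoskeletal adaptor, was at 0 to 0.124 CPM in MII controls and 0.863 to 17.5 CPM in Dis3 cKO, with no overlap. It had 531 counts against 3, a 96.8-fold higher level (counting interval 32.9 to 471). Kif16bos was 110-fold higher (604 counts against 3, interval 37.5 to 535), and its log2 change was 5.84 without MII Dis3 cKO library 15 and GV control 1, against 6.44 with them. B9d1os was at 0 to 0.216 CPM in controls and 0.513 to 5.83 CPM in Dis3 cKO, also without overlap (4.64 ± 0.71, adjusted p = 1.63e-07).

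Hnf4aos, antisense to the gene of a nuclear receptor of liver and gut, was at 0 to 3.21 CPM in MII controls (median 0.38) and 1.4 to 17.1 CPM in Dis3 cKO (median 5.04). The ranges overlapped at their ends (2.5 ± 0.36, adjusted p = 3.36e-08). The 3 members that fell at MII were Man2c1os, Tbc1d22bos (-0.64 ± 0.24, adjusted p = 0.0237) and N4bp2os (-0.47 ± 0.2, adjusted p = 0.0474). Man2c1os, head to head with the gene of a cytosolic mannosidase, was at 11.8 to 19.0 CPM in controls and 2.91 to 9.58 CPM in Dis3 cKO, without overlap (-1.4 ± 0.17, adjusted p = 2.51e-10). Man2c1 rose by 1.71 ± 0.62 (adjusted p = 0.0196) from a median of 0.108 CPM to one of 0.341 CPM, levels of few counts.

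Among 81 pairs tested at MII, 12 had a call for the opposite-strand gene alone, each of them higher, 14 for the partner alone, and 19 for both, 13 in the same and 6 in opposite directions. The opposite pairs were those of Cebpzos, Rab10os, Dbhos, Grip1os3, Mkln1os and Man2c1os. Mkln1os, head to head with the gene of a ubiquitin ligase subunit, was at 0.107 to 5.64 CPM in controls (median 2.46) and 3.52 to 36.3 CPM in Dis3 cKO (median 8.41). It rose by 2.01 ± 0.36 (adjusted p = 5.36e-06) while Mkln1 fell by 0.37 (adjusted p = 0.00581). Cebpzos was at 1.03 to 3.13 CPM in controls and 1.47 to 7.81 CPM in Dis3 cKO (1.02 ± 0.24, adjusted p = 0.000392), and Cebpz, the gene of a ribosome assembly factor, fell without overlap from 144 to 258 CPM to 59.1 to 127 CPM (-1.14 ± 0.11, adjusted p = 3.51e-14). Since these pairs were chosen for calls in opposite directions, the differences of their ratios are a description: 2.13 (log2) for Cebpzos to Cebpz, 2.15 for Grip1os3 to Grip1 and 2.68 for Mkln1os to Mkln1.

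**Figure D3:**
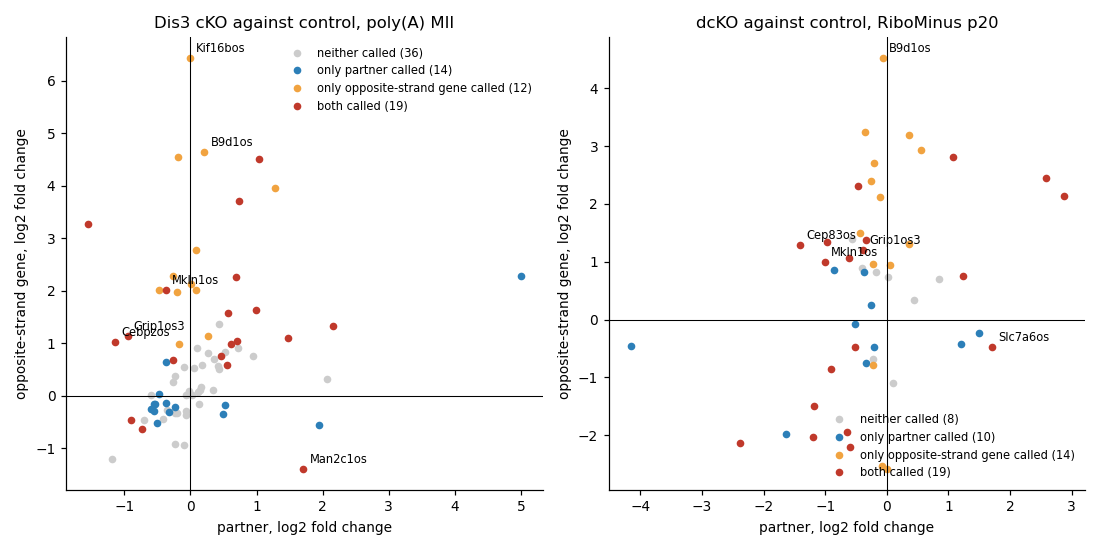
Log2 fold change of each opposite-strand gene (vertical axis) against that of its partner (horizontal axis) in MII Dis3 cKO eggs (left, 81 pairs) and p20 dcKO oocytes (right, 51 pairs), relative to control. Each point is 1 pair, coloured by which of its genes were called, with the number of pairs in brackets. Kif16bos at MII and B9d1os in both panels were called and lay near a partner change of 0, and Mkln1os, Grip1os3 and Cep83os lay among pairs with opposite signs.

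Called at all 3 poly(A) stages in the same direction were 16 members, each of them higher: Atad3aos, B9d1os, Brd3os, Cdiptos, Dhrs13os, Fam120aos, Fbxl12os, Galnt6os, Gimap1os, Grip1os3, Hnf4aos, Kif16bos, Lppos, Mkln1os, Spag17os and Trp73os. None was lower at all 3 stages by edgeR's test, beside 3.73% of all genes and 20 of 1332 other lncRNA genes. The 16 make 18.2% of the 88 tested members, against 8.55% of all genes and 22.4% of 1332 other lncRNA genes called higher at all 3 stages. The stages used separate libraries, so these calls do not share controls, but they come from 1 fit and 1 filter on low counts. Atad3aos, B9d1os, Cdiptos, Fam120aos, Fbxl12os, Kif16bos, Spag17os and Trp73os passed that filter only with the Dis3 cKO libraries. Such genes made up 30.7% of tested members and 16.7% of all tested genes, so the shares called at all 3 stages are descriptions. Dhrs13os, head to head with a dehydrogenase gene, was steady in size: its log2 change was 1.04 ± 0.19 at GV, 1.35 ± 0.19 at GV3h and 1.13 ± 0.19 at MII (adjusted p = 1.04e-05, 1.76e-08 and 9.28e-07).

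The Dis3 effect at MII differed from that at GV for 10 of 88 members in the interaction test, 9 higher and 1 lower, against 13.2% of all genes (9.28% higher and 3.88% lower). With ERCC scaling 24 were higher and 0 lower, beside 30.1% of all genes, while a fit on only the groups compared called 4 of 79 (8.60% of all genes). Kank4os differed most (log2 difference 5.81 ± 0.87, adjusted p = 1.48e-06): at GV its change was 0.4 ± 0.48 (adjusted p = 0.621). Myocos was lower in Dis3 cKO at GV and higher at MII, where controls ran from 46.1 to 94.0 CPM and Dis3 cKO eggs from 35.2 to 405 CPM, with 3 libraries above 200 CPM (difference 1.64 ± 0.31, adjusted p = 0.000127). Cebpzos (0.98 ± 0.32, adjusted p = 0.0307) and Cebpz (-0.56 ± 0.16, adjusted p = 0.0107) differed in opposite directions. Man2c1os was the 1 with the lower effect at MII (-1.1 ± 0.25, adjusted p = 0.00118), and this call was lost with ERCC scaling (-0.49).

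After 3 h of culture of control oocytes edgeR called 0 of 88 members, against 2.71% of all genes (1.14% higher and 1.56% lower), with 5 at an unadjusted p under 0.05. DESeq2 called 1, beside 3.64% of all genes, and a fit on these groups alone called 4 of 56 members, 7.14%, beside 15.1% of all genes. The smallest adjusted p was that of Cebpzos (0.0544).

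From GV to MII in control oocytes the members were split 14 higher and 36 lower of 88, against 58.5% of all genes called (22.7% higher and 35.8% lower), and the partners 46 higher and 35 lower of 138. The median log2 change was -0.74 for the members and 0.19 for the partners. By position, 10 of 21 tested head-to-head members fell and 1 rose, and of 28 overlapping members 9 fell and 7 rose. With ERCC scaling 77 of 88 members were lower and 0 higher, and of the partners 123 were lower and 0 higher, so every rise from GV to MII given here is relative to the other genes of the library. In Dis3 cKO oocytes the split from GV to MII was 18 higher and 33 lower, against 63.3% of all genes (24.8% higher and 38.5% lower), and 0 and 70 with ERCC scaling.

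Hnf4aos was at 7.67 to 16.6 CPM in GV controls and 0 to 3.21 CPM in MII controls, without overlap (-3.6 ± 0.39, adjusted p = 1.32e-12). Myocos went from 348 to 509 CPM to 46.1 to 94.0 CPM, together with Myoc (-2.73 ± 0.27 and -1.96 ± 0.22, adjusted p = 2.89e-14 and 2.95e-12). Kank4os had 93 counts at GV and 3 at MII, a 42.0-fold lower level (counting interval 13.9 to 207). The largest rises were those of Dnmt3aos (1.95 ± 0.71, adjusted p = 0.0151), Frmd8os (1.93 ± 0.29, adjusted p = 2.58e-08) and Trpc5os (1.75 ± 0.71, adjusted p = 0.0293), the last of which rose with Trpc5, the gene of a cation channel.

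In 6 pairs the opposite-strand gene fell and the partner rose from GV to MII in control oocytes, among them those of Atad3aos, Cebpzos, Kbtbd8os, Grip1os3 and Tbx3os2. Cebpzos was at 6.6 to 21.2 CPM at GV and 1.03 to 3.13 CPM at MII (-2.76 ± 0.27, adjusted p = 3.92e-14), against 97.1 to 141 CPM and 144 to 258 CPM for Cebpz (0.73 ± 0.13, adjusted p = 9.4e-07). Kbtbd8, the gene of a ubiquitin ligase adaptor, was abundant at 894 to 1322 CPM at GV and 1751 to 2706 CPM at MII, while Kbtbd8os fell from 2.31 to 6.83 CPM to 1.3 to 3.9 CPM. The log2 ratio of member to partner was lower at MII by 2.13 (Tbx3os2) to 3.63 (Atad3aos), a direction that the choice of these pairs fixes.

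**Figure D4:**
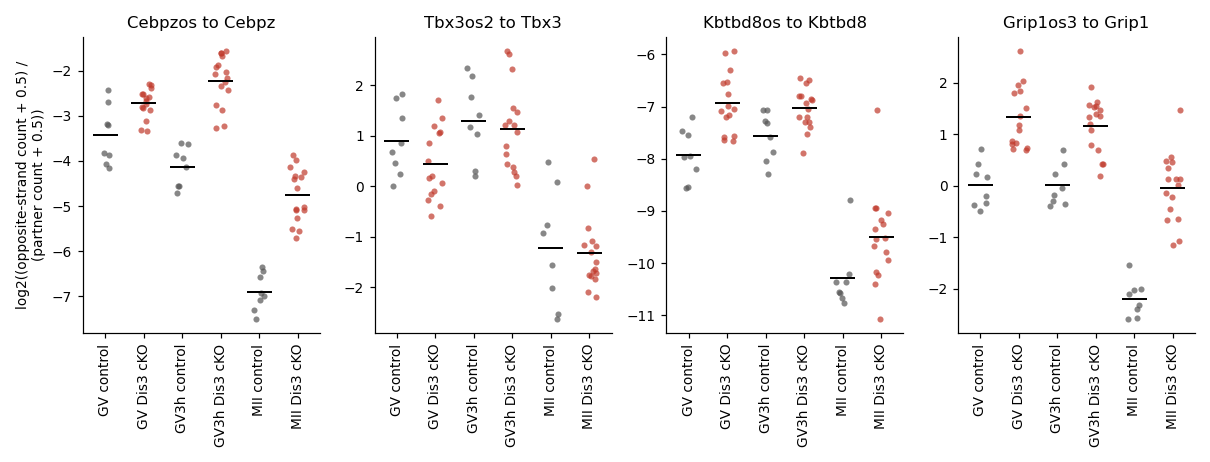
Log2 ratio of opposite-strand to partner counts (each plus 0.5) in each poly(A) library for 4 pairs, at GV, GV3h and MII in control (grey) and Dis3 cKO (red) oocytes, with black lines at group means. In control oocytes the mean log2 ratio went from GV to MII from -3.43 to -6.89 for Cebpzos, from 0.9 to -1.23 for Tbx3os2, from -7.93 to -10.29 for Kbtbd8os and from 0.01 to -2.2 for Grip1os3.

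In adult GV oocytes sequenced by RiboMinus, 18 of 59 tested members were higher in Dis3 cKO and 4 lower, against 28.1% of all genes called (15.7% higher and 12.4% lower). The split was 11 higher and 11 lower with ERCC scaling. Partners were split 15 to 11 of 129 (3 to 61 with ERCC scaling), and the median log2 change was 0.46 for members and -0.02 for partners. RiboMinus titles carry a second tag that divides each group into 2 sets and, in the adult groups, differs between the genotypes. Its meaning is not given. Counts summed per tag, 2 sums a group, called 0 of 102 members and 0 of all 20190 genes. In Dis3 cKO 1 set of 4 libraries had the larger mean for 15 of the 18 higher members, with a median ratio of 1.92 between the tag means, and for 81.7% of all genes called higher (median ratio 1.33). Of the 18, 8 passed the filter only with the knockout libraries, Trp73os, Evx1os, N4bp2os and Uckl1os among them.

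Trp73os was at 0.0392 to 0.524 CPM in adult controls and 0.619 to 3.92 CPM in Dis3 cKO, without overlap (2.85 ± 0.48, adjusted p = 0.000247). Evx1os, antisense to the homeobox gene Evx1, was at 0.0392 to 0.415 CPM in controls and 0.402 to 2.89 CPM in Dis3 cKO (2.52 ± 0.52, adjusted p = 0.00136), with Evx1 at -0.02 ± 0.14 (adjusted p = 0.917). Gimap1os and Gimap1, the gene of a GTPase of lymphocytes, rose as a pair: Gimap1 was at 0.226 to 1.08 CPM in controls and 3.42 to 17.1 CPM in Dis3 cKO (3.57 ± 0.44, adjusted p = 1.1e-05), and Gimap1os at 0.491 to 2.82 CPM and 2.75 to 16.8 CPM (1.97 ± 0.42, adjusted p = 0.00182).

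The largest change was that of N4bp2os, at 0.0981 to 0.51 CPM in adult controls and 0.217 to 32.4 CPM in Dis3 cKO (5.01 ± 0.92, adjusted p = 0.000541). Its Dis3 cKO libraries differed by tag, with means of 17.0 and 0.775 CPM, so the size of the change rests on 1 tag. N4bp2 was lower (-0.55 ± 0.1, adjusted p = 0.000481), as was Uchl1, the gene of an abundant deubiquitinating enzyme of oocytes, which was at 740 to 949 CPM in controls and 465 to 697 CPM in Dis3 cKO, without overlap (-0.54 ± 0.08, adjusted p = 7.59e-05). Uchl1os rose by 1.69 ± 0.44 (adjusted p = 0.00721), with tag means of 10.6 and 2.48 CPM in Dis3 cKO against 1.93 and 2.13 CPM. These 2 were the pairs called in opposite directions. Sp3os, Tbx3os2, Myocos and Usp46os2 were the 4 lower members, with log2 changes of -0.99, -0.65, -0.6 and -0.58.

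Poly(A) and RiboMinus libraries of GV oocytes are separate oocytes and separate assays. Of the 58 members tested in both, 14 were higher in Dis3 cKO by poly(A) and 18 by RiboMinus, and 11 were shared, 78.6% of the former and 61.1% of the latter. Over all genes tested in both assays the shares were 63.5% and 46.4%, and over 909 other lncRNA genes 80.7% and 64.8%. The shared genes were Brd3os, Cdiptos, Dhrs13os, Evx1os, Gimap1os, Grip1os3, Hnf4aos, Ino80dos, Kbtbd8os, Mkln1os and Trp73os. Cdiptos, Evx1os and Trp73os passed the filter only with the Dis3 cKO libraries in both assays, and Brd3os and Ino80dos in RiboMinus. Such genes made up 47.6% of higher members and 37.4% of all higher genes in poly(A) GV. In adult GV they made up 44.4% and 24.7%, so the shared calls are descriptions. Of 5 and 4 lower members 3 were shared (60.0% and 75.0%), Myocos, Sp3os and Tbx3os2, and 0 were called in opposite directions. For lower calls the shares were 49.5% and 36.2% over all genes, and 35.6% and 43.2% over other lncRNA genes. B9d1os and Kif16bos had too few counts to pass the filter in the adult RiboMinus libraries.

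At p20 the single knockouts called few members. In Dis3 cKO 2 of 57 were higher, Zfp335os (2.23 ± 0.66, adjusted p = 0.0288) and Brd3os (1.44 ± 0.42, adjusted p = 0.0252), and 3 lower, Trpc5os, Tbx3os2 and Myocos, against 7.37% of all genes, 3.61% higher and 3.76% lower (0 and 3 members with ERCC scaling). In Exosc10 cKO 3 were higher, Brd3os, Rab10os and Dhrs13os, and 2 lower, Tbx3os2 and Myocos, against 7.45% of all genes, 3.95% higher and 3.50% lower (0 and 1 members with ERCC scaling). Both shares are near the background of all genes. Counts summed per title tag called 0 of 98 members in each (smallest adjusted p = 0.081 and 0.124 by edgeR), beside 1.37% and 0.832% of all genes. Both comparisons, and that of dcKO, share the same 8 control libraries.

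In dcKO oocytes 25 of 57 members were higher and 11 lower, against 53.7% of all genes called (26.6% higher and 27.1% lower). Of 129 partners 24 were higher and 44 lower. The median log2 change was 0.82 for members, -0.22 for partners and -0.01 for all genes, and of 973 other lncRNA genes 270 were higher and 187 lower. Of 13 tested head-to-head members 8 were higher and 0 lower by edgeR's test, and of 19 overlapping ones 6 were higher and 5 lower. Counts summed per title tag called 32 of 98 members (20 higher and 12 lower), 32.7%, beside 31.8% of all genes in that fit.

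In dcKO 6 of the 25 higher members, B9d1os among them, passed the filter on low counts only with the dcKO libraries. The filter favours genes that are high in those libraries, so the adjusted p of these 6 is a description. B9d1os was at 0 to 0.854 CPM in p20 controls (median 0) and 1.76 to 5.96 CPM in dcKO, without overlap (4.53 ± 1, adjusted p = 0.000257), and it was higher in dcKO than in Dis3 cKO (4.77 ± 1.04, adjusted p = 0.000248) and than in Exosc10 cKO (3.12 ± 0.91, adjusted p = 0.00481). B9d1 stayed at 7.08 to 13.1 CPM and 6.64 to 15.8 CPM (-0.06 ± 0.19, adjusted p = 0.805). Brd3os was at 0.176 to 2.14 CPM in controls, 0.875 to 4.69 CPM in Dis3 cKO, 1.35 to 4.45 CPM in Exosc10 cKO and 4.18 to 18.8 CPM in dcKO. Only the dcKO libraries lay wholly above the controls (2.82 ± 0.43, adjusted p = 1.26e-06), and Brd3 rose as well (1.07 ± 0.16, adjusted p = 1.03e-06).

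Arhgap33os, named after a GTPase-activating protein gene, was at 0.329 to 2.7 CPM in p20 controls and 3.28 to 16.1 CPM in dcKO, without overlap (2.93 ± 0.7, adjusted p = 0.000584). Stamos, 28 bases from the start of Stam, a gene of endosomal sorting, was at 0 to 0.592 CPM and 0.909 to 4.43 CPM, again without overlap (2.71 ± 0.68, adjusted p = 0.00107). Neither partner was called (Arhgap33 0.55 ± 0.3, adjusted p = 0.13, and Stam -0.21 ± 0.17, adjusted p = 0.305). Dio3os was at 0.348 to 2.08 CPM in controls and 3.25 to 9.43 CPM in dcKO, without overlap (2.45 ± 0.52, adjusted p = 0.00016).

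Of 51 pairs tested in dcKO, 19 had both genes called, 11 in the same and 8 in opposite directions. The 8 were those of Slc7a6os, Rab10os, Brip1os, Grip1os3, Ccpg1os, Mkln1os, Cep83os and N4bp2os. Cep83os, 11 bases from the start of a gene of the centriole's distal appendages, was at 5.54 to 11.5 CPM in controls and 6.77 to 36.1 CPM in dcKO (1.29 ± 0.28, adjusted p = 0.000267), with tag means of 24.6 and 10.7 CPM in dcKO. Cep83 fell without overlap from 108 to 135 CPM to 32.6 to 72.3 CPM (-1.41 ± 0.14, adjusted p = 2.86e-10). The ratio of Cep83os to Cep83 was higher in dcKO by 2.59 (log2), from a mean of -4.1 ± 0.44 (SD) to -1.52 ± 1.12.

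Mkln1os rose by 1 ± 0.3 (adjusted p = 0.00537), from 0.852 to 2.23 CPM to 1.3 to 4.77 CPM, while Mkln1 fell by 1 ± 0.11 (adjusted p = 1.83e-09), from 199 to 340 CPM to 127 to 180 CPM. Grip1os3 was at 20.8 to 30.4 CPM in controls and 43.7 to 86.5 CPM in dcKO, without overlap (1.21 ± 0.17, adjusted p = 2.26e-07), with Grip1 lower (-0.38 ± 0.15, adjusted p = 0.0324). In the Slc7a6os pair the signs were the other way round: the protein-coding member fell from 98.5 to 134 CPM to 65.5 to 104 CPM (-0.48 ± 0.1, adjusted p = 0.000129), and Slc7a6, the gene of an amino acid transporter, rose from 1.1 to 5.48 CPM to 5.27 to 10.3 CPM (1.71 ± 0.35, adjusted p = 0.000117).

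The members that fell in dcKO included Pard3bos2 (-2.59 ± 0.65, adjusted p = 0.00109) and Macrod2os2 (-2.21 ± 0.63, adjusted p = 0.00369). Tbx3os2, named after the T-box gene Tbx3, was at 6.92 to 18.3 CPM in controls, 4.47 to 9.26 CPM in Dis3 cKO, 3.33 to 8.99 CPM in Exosc10 cKO and 1.91 to 5.71 CPM in dcKO. It was lower in each knockout (log2 -0.95, -1.14 and -1.94, adjusted p = 0.0139, 0.00293 and 1.69e-07), though the first and the second of these calls were lost with counts summed per title tag, and the dcKO range did not overlap the control range. Hectd2os fell together with Hectd2, the gene of a ubiquitin ligase (-2.04 ± 0.37 and -1.19 ± 0.18, adjusted p = 2.11e-05 and 1.54e-06). Trpc5os and Trpc5 fell together as well (-2.13 ± 0.47 and -2.38 ± 0.6, adjusted p = 0.000283 and 0.00104).

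Against the single knockouts, dcKO oocytes had 20 members higher and 8 lower than Dis3 cKO, beside 51.5% of all genes called (26.0% higher and 25.5% lower), or 20 and 3 members with ERCC scaling. Against Exosc10 cKO 12 members were higher and 12 lower, beside 49.2% of all genes (24.2% higher and 25.0% lower). The Dis3 effect in adult GV oocytes differed from that at p20 for 6 of 73 members, against 9.32% of all genes (5.34% higher and 3.98% lower): N4bp2os (4.38 ± 1.18), Uckl1os (2.46 ± 0.78), Uchl1os (1.65 ± 0.5), Gimap1os (1.58 ± 0.46), Grip1os3 (1.08 ± 0.23) and Dhrs13os (0.99 ± 0.25), each with a higher effect in the adult (adjusted p = 0.00124 to 0.0359). The same set of 4 adult Dis3 cKO libraries had the larger mean for all 6: for Uckl1os the tag means were 2.47 and 0.738 CPM, against 0.172 and 0.635 CPM in controls, for Gimap1os 11.4 and 3.99 CPM, for Dhrs13os 45.5 and 25.5 CPM and for Grip1os3 50.7 and 37.5 CPM. With ERCC scaling 1 member was called, and with counts summed per title tag 0 of 116, beside 3.38% and 0.307% of all genes.

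The members together made up a small and uneven part of each library. Their summed level was 1471 ± 81.2 CPM (SD, n = 8) in GV controls and 1407 ± 109 CPM (n = 15) in Dis3 cKO, and without the 3 members with the highest mean CPM of the assay 515 ± 42.2 and 610 ± 79.1 CPM. It was 1347 ± 65.2 and 1343 ± 83.8 CPM at GV3h, 792 ± 29.9 and 964 ± 157 CPM at MII, and 688 ± 25.5 and 864 ± 118 CPM in adult GV. At p20 it was 659 ± 21.1 CPM in controls, 668 ± 44.1 CPM in Dis3 cKO, 660 ± 53.9 CPM in Exosc10 cKO and 702 ± 54.1 CPM in dcKO, and without those 3 it was 182 ± 17.4 CPM in controls and 328 ± 59.9 CPM in dcKO. Arhgap20os, antisense to a GTPase-activating protein gene, Myocos and Slc7a6os had the highest mean CPM over the control groups, a rank by reads with no correction for length. In adult GV oocytes Arhgap20os was at 321 to 371 CPM in controls and 356 to 442 CPM in Dis3 cKO, and at p20 at 283 to 346 CPM in controls and 168 to 292 CPM in dcKO. It was called higher in the first of these comparisons and lower in the second, both relative to the bulk of genes. With ERCC scaling the median log2 change of all genes in adult GV was -0.52, against 0.03.

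Members and partners were also compared from oocyte to oocyte within groups. Over 71 poly(A) libraries, after removing group means, Pearson's r between log2(CPM + 1) of member and partner had a median of 0.32 over the 26 pairs with a mean of 5 CPM or more for both genes (range -0.03 to 0.93, with 24 above 0 and 11 at 0.5 or more). It was highest for Tomm6os (0.93), Usp46os2 (0.93), Kdm6bos (0.92), Uchl1os (0.92) and Hectd2os (0.9), and near 0 for Tbx3os2 (-0.03), Mkln1os (-0.01), Rab10os (0.04) and Grip1os3 (0.08). Over 48 RiboMinus libraries the median of 9 pairs was 0.2 (range -0.39 to 0.53, with 6 above 0 and 1 at 0.5 or more), lowest for Brip1os (-0.39), Cep83os (-0.27) and Grip1os3 (-0.14). The libraries share depth and oocyte quality, and reads of overlapping exons cannot be told apart, so these values are descriptive.

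Peaks were looked for within 1000 bases of the start of the 119 members with a known strand. Pol II peaks lay at 7, 10 and 10 member starts in the 3 adult control libraries and at 19, 14 and 20 in the 3 adult Dis3 cKO libraries, which do not overlap (mean 9 ± 1.73 and 17.7 ± 3.21, 2-sided exact permutation p = 0.1, the smallest that 3 against 3 allows). With only peaks above the median total signal the difference in means fell from 8.67 to 2.67 (exact permutation p = 0.2). The lists also differ in length, with 19697, 35843 and 30892 peaks in the adult controls and 88697, 30311 and 122606 in Dis3 cKO. The second Dis3 cKO list, shorter than 2 of the 3 control lists, held 14 member starts and 7 partner starts, against 7, 10 and 10 and 8, 11 and 8 in controls. The share of protein-coding starts with a peak went from 3.78% to 9.13%. p20 control libraries held 13, 18 and 21 such members (mean 17.3 ± 4.04, exact permutation p = 0.1 against adult controls) in lists of 79166 peaks on average. With only peaks above the median total signal the difference, adult minus p20, went from -8.33 to -3.67 (exact permutation p = 0.3). No further test of list length was made.

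H3K27me3 peaks, a mark of silenced genes, lay at 24, 41 and 24 member starts in adult controls and 31, 24 and 23 in Dis3 cKO (exact permutation p = 0.7), and at 37, 34 and 33 in p20 controls and 27, 39 and 36 in dcKO (exact permutation p = 0.9). The lists held a mean of 129404 peaks in adult controls, 248608 in adult Dis3 cKO, 155749 in p20 controls and 274295 in dcKO. The share of other lncRNA starts with a peak was 24.0% and 31.8% in the adult groups and 29.2% and 36.8% at p20, and that of member starts 24.9% and 21.8%, and 29.1% and 28.6%. Of the 31 head-to-head starts 4, 5 and 4 had a peak in adult controls (14%) and 5, 5 and 5 in p20 controls (16.1%), a difference from other members that was not tested. At single genes, Evx1os and Evx1 had an H3K27me3 peak in 3 of 3 adult and 3 of 3 p20 control libraries, and in 0 adult Dis3 cKO libraries. In p20 dcKO Evx1os had one in 1 library and Evx1 in 0. Dio3os and Dio3 had it in 3 of 3 libraries of both control groups and in 0 of 3 of both knockout groups. These genes were picked after their values were seen, and their peaks have no test. B9d1os and B9d1 shared Pol II peaks in 2 adult control, 3 p20 control and 2 adult Dis3 cKO libraries, and Man2c1os and Man2c1 in 1, 3 and 3.

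**Figure D5:**
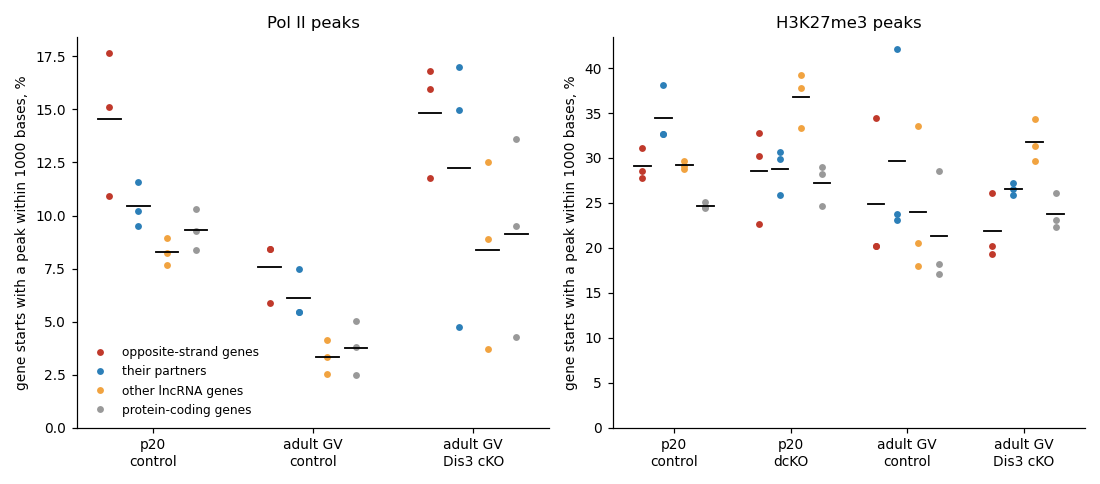
Share of gene starts with a Pol II (left) or H3K27me3 (right) peak within 1000 bases, in percent, for opposite-strand genes, their partners, other lncRNA genes and protein-coding genes. Each point is 1 of 3 libraries of a group and black lines are means. For Pol II the adult Dis3 cKO libraries lay above adult controls for opposite-strand genes, 17.7 against 9 starts on average, and the other gene sets also had higher means.

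The 20 genes listed for handing short-lived nuclear RNA to the exosome or for ending its transcription were tested beside the members. In dcKO 9 were higher and 4 lower, in MII Dis3 cKO 4 and 3, at GV 3 and 1, and in adult GV 2 and 3, beside 53.7%, 42.1%, 21.9% and 28.1% of all genes called. Srrt, which links the cap-binding complex to RNA decay, rose by 1.42 ± 0.1 in dcKO (adjusted p = 7.98e-13) and 1.7 ± 0.21 at MII (adjusted p = 2.78e-10). Mtrex, the helicase of the nuclear exosome, was lower in both (-0.82 ± 0.09, adjusted p = 3.42e-09, and -0.39 ± 0.11, adjusted p = 0.00346). Zcchc8, a partner of that helicase, was lower in dcKO (-0.49 ± 0.11, adjusted p = 0.000455) but not called at MII (0.04 ± 0.09, adjusted p = 0.772). Among those higher in dcKO by edgeR's test were C1d (1.69 ± 0.31, adjusted p = 2.18e-05), Ncbp1 (1.67 ± 0.22, adjusted p = 8.25e-08) and Zfc3h1 (0.82 ± 0.1, adjusted p = 1.59e-08). Rbm7 was not called there (-0.05 ± 0.11, adjusted p = 0.705).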

How the data were processed

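Deposited files gave read counts per gene and per ERCC spike-in RNA for each library, and CUT&Tag peak lists with a total and maximum signal per peak, as the authors made them. The submitters' processing notes list cutadapt 2.5, STAR 2.7.2a, SAMtools 1.9, HTSeq 0.9.1, DESeq2 1.24.0, SEACR and build mm10. Annotation release and strand use are not given in the sources used here. CUT&Tag reads were sampled to an equal number per library, per the labels' design text, which limits how far peak lists show depth. IgG libraries were not analysed here. The GV Dis3 cKO sample titles skip 1 number, and all 15 listed libraries of that group were analysed.

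Counts were tested with edgeR 4.0.16 in R 4.3.3 (TMM, filterByExpr, quasi-likelihood F test, Benjamini-Hochberg over all genes, threshold 0.05). All 6 poly(A) groups shared 1 fit, as did the 4 p20 groups, and the adult groups had their own. CPM are counts scaled to a common TMM-adjusted library size and carry no length correction, so a rank of members by CPM is one by reads, not by molecules. Positions, types and promoter sequences come from RefSeq tables of GRCm38.p6. Alternatives were DESeq2 1.42.0, ERCC scaling, no filter, only the groups compared, a replicate block, counts summed per title tag, other windows and pseudocounts.

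Members and gene lists were chosen with earlier results of these data known. Genes were named by rule: among called members with a mean of 1 CPM or more in a group, the 6 largest changes in each direction per comparison, all pairs called in opposite directions, and the 10 members with the highest CPM per assay; 1 gene that the rule names is not reported here. The planned permutation test of the ratios is not quoted, since pairs entered it because both genes were called in opposite directions. Evx1os, Dio3os and their partners in the peak lists were picked after their values were seen.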

Additional observations from a re-analysis of the deposited data

Results flagged for a closer look

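Tests of the difference between effects gave 16 calls, 10 for MII against GV and 6 for adult against p20, with Uchl1os in both. The Dis3 effect at MII exceeded that at GV for Kank4os (log2 difference 5.81), Cdiptos (2.9), Ccpg1os (1.85), Myocos (1.64), Hnf4aos (1.59) and Cebpzos (0.98), and was below it for Man2c1os (-1.1). It also exceeded it for Slmapos2 (4.48), Tbx3os2 (0.91) and Uchl1os (0.83), which the rule for named genes leaves out. For Cdiptos the change was 1.62 ± 0.6 at GV and 4.52 ± 0.94 at MII. Cdiptos and Slmapos2 passed the filter on low counts only with the Dis3 cKO libraries, so their values are descriptions. The Dis3 effect in adult GV oocytes exceeded that at p20 for N4bp2os (4.38), Uckl1os (2.46), Uchl1os (1.65), Gimap1os (1.58), Grip1os3 (1.08) and Dhrs13os (0.99).

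In 4 of 48 combinations of a gene and a group of 8 libraries, which share groups, 1 library stood apart from the rest by Dixon's ratio, of which chance gives about 1 in 20. The highest Brd3os library of p20 dcKO was at 18.8 CPM, beside a group median of 6.35 CPM. The highest Rab10os libraries were at 17.9 CPM in p20 dcKO and 6.59 CPM in p20 controls, beside medians of 7.05 and 2.62 CPM. The highest Kbtbd8os library of MII controls was at 3.90 CPM, beside a median of 1.56 CPM.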

How the results depend on the processing

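Counts of called members stayed within 1.5 times the reported ones in 60 of 81 alternative fits, and 809 of 937 values of named genes kept direction and call, 120 kept the direction alone and 8 reversed. With ERCC scaling the counts were 17 (Dis3 cKO at GV), 77 (control MII against GV), 24 (Dis3 effect at MII against GV), 3 and 1 (Dis3 and Exosc10 cKO at p20) and 1 (adult against p20), beside 20.6%, 87.8%, 30.1%, 6.09%, 2.29% and 3.38% of all genes in the same fits. Reversed with it were Frmd8os (-0.22), Kank4os (-0.35), Slain1os (-0.04) and Sorbs2os (-0.1) in Dis3 cKO MII against GV, and Hectd2os (-0.84), N4bp2os (-0.59), Phtf1os (-0.67) and Trpc5os (-0.17) in control MII against GV. Fits on only the groups compared called 18 at MII, 4 for control GV3h, 4 for the MII against GV effect and 3 for p20 Dis3 cKO, beside 30.6%, 15.1%, 8.60% and 11.2% of all genes. Without the filter 34 (adult), 45 (dcKO against Dis3 cKO) and 38 (against Exosc10 cKO) were called, beside 13.6%, 27.3% and 27.1% of all genes. DESeq2 called 1 for control GV3h and 8 for Exosc10 cKO, beside 3.64% and 9.63%. Sums per title tag called 0 in adult, p20 Dis3 cKO, p20 Exosc10 cKO and adult against p20, beside 0%, 1.37%, 0.832% and 0.307% of all genes. Without GV control 1 and MII Dis3 cKO 15, 2 were called for control GV3h. A replicate block on title numbers called 6 for the MII against GV effect. It changed no other count of members by over 1.5 times. Median correlations between same-numbered libraries of control and knockout groups ran from -0.0265 to 0.141, with single values from -0.441 to 0.327. Differently numbered libraries were not compared, so whether the numbers pair libraries was not tested.

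Differences in member starts with a peak moved with the window of 2000 bases to 16.7 (Pol II, adult Dis3 cKO against control), -13.3 (adult against p20 control) and 3.33 (H3K27me3, dcKO, reversed), and with peaks above the median signal to 2.67, -3.67 and -11.3. Leaving out 1 replicate gave -9 to 3.00 for H3K27me3 in adult Dis3 cKO (3.00 without replicate 2) and -3.50 to 4 in dcKO (4 without replicate 1). The cause was not tested. Depth limits the members of few counts: of 175 poly(A) members 59 had under 100 counts in total over 71 libraries.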
